A study of Mus musculus with 31 samples.

Results

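The S phase and mitosis genes described here are 45 genes of the 39017 in the deposited table, chosen by symbol, with no measured value in the rule. Of these, 19 act in S phase, 25 act in G2 phase and mitosis (G2/M), and Cdkn1b encodes the cyclin-dependent kinase (CDK) inhibitor p27. All 45 were found, and all 45 passed the filter on low counts in every comparison. Bulk poly(A) RNA was measured in 31 libraries of mouse breast tumours, which fall into 8 groups from 2 models, titled 4T1 and MT, and 4 arms. The combination arm received poly I:C, a double-stranded RNA sensed by Toll-like receptor 3, together with phenformin, an inhibitor of mitochondrial complex I. The poly I:C arm received it with PBS, the phenformin arm received it with saline, and the control arm received saline and PBS. Each group has 4 libraries except 4T1 phenformin, which has 3. Every animal is tagged WT; the labels used here give no dose, time, age or sex, and do not say whether the numbered replicates of a group are separate animals, so the p-values measure the spread between libraries.

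Library totals ran from 12160110 to 19849915 counts. Titles and tags name opposite models: libraries titled 4T1 are tagged FVB and MT4788, and libraries titled MT are tagged BALBc and 4T1-537. H2-Ea-ps, transcribed in only some mouse strains, was at 222 to 1011 CPM (counts scaled to library size) in the 15 libraries titled 4T1 and at 5.42 to 50.9 CPM in the 16 titled MT, and the titles are used as group names. All 6 epithelial markers had counts in each group, with summed levels of 919 to 5475 CPM over the libraries. Some libraries stood apart within their group. Sox10, a neural crest transcription factor, was at 173 to 218 CPM in MT control replicates 1 to 3, at 195, 193 and 33.5 CPM in MT phenformin replicates 1 to 3, and at most 3.06 CPM in every other MT library. Krt5, a basal keratin, was at 21.4 to 37.5 CPM in the 5 libraries with the most Sox10, and at 330 to 2452 CPM in the other MT libraries. Acta1, skeletal muscle actin, exceeded 10 CPM in 5 treated 4T1 libraries, and Igkc, an antibody light chain, exceeded 100 CPM in 3 4T1 and 7 MT libraries. The results below are also given without these libraries where that changes them.

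Dividing cells copy their DNA in S phase and separate the copies in mitosis. At the start of S phase, E2F transcription factors released from the retinoblastoma protein switch on genes for origin licensing, nucleotide supply and the replication machinery. Genes for mitosis are switched on later, in G2, through MYB-MuvB and FOXM1, which act at CHR elements that often lie near CCAAT boxes. Cyclins give the CDKs their timing, p27 restrains cyclin E and cyclin A kinases, and the ubiquitin ligase APC/C, loaded by UBE2C and CDC20, ends mitosis. In a tumour piece, the summed RNA of such genes is widely read as a sign of how many cells are dividing, in the tumour cells and in the host cells alike.

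The promoters of 37 of the 45 members, as 40 windows, were found in the RefSeq table (GRCm38.p6), each window reaching from 250 bases before to 50 bases after a transcription start. Short patterns of 3 kinds were searched on both strands: the E2F-type core TTNNCGC with each N read as C or G, the CHR-type pattern TTTGAA or its form with C as the third base, and the CCAAT box. An E2F-type core lay in 12 of 18 S phase windows (66.7%) and in 6 of 21 G2/M windows (28.6%), against 9.57% of all 32851 windows. The CHR-type pattern lay in 3 of 18 S phase windows (16.7%) and in 16 of 21 G2/M windows (76.2%), against 19.2% of all windows. A CCAAT box lay in 13 of 18 S phase windows and in 18 of 21 G2/M windows, against 37.4% of all. The CHR-type pattern and the CCAAT box lay together in 16 of 21 G2/M windows, against 7.52% of all. A match is a string of letters in the reference and not a measured site. The stretches below are the 150 bases before the start of the 3 members of each list with the smallest p-values between untreated 4T1 and MT tumours; capitals mark matches to any of the 3 patterns.
Rrm2 promoter, chr12:24708104-24708253, strand +: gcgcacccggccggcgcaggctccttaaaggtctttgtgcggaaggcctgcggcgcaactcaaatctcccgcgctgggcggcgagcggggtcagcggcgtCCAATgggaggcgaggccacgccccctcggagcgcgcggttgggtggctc
Ccne1 promoter, chr7:38107491-38107640, strand -: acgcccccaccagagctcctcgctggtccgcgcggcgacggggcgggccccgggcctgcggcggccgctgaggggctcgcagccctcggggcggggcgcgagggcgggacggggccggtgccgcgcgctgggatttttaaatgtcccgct
Rrm1 promoter, chr7:102441545-102441694, strand +: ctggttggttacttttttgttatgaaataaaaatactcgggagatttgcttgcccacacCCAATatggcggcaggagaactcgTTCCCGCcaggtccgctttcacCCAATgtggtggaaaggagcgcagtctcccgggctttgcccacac
Birc5 promoter, chr11:117849087-117849236, strand +: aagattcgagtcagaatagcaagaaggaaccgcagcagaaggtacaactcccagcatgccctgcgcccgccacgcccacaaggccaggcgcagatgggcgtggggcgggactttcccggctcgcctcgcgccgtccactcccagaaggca
Ube2c promoter, chr2:164769779-164769928, strand +: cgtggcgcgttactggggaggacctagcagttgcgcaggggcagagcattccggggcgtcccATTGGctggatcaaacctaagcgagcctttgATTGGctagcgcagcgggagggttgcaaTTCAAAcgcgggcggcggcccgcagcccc
Aurka promoter, chr2:172370571-172370720, strand -: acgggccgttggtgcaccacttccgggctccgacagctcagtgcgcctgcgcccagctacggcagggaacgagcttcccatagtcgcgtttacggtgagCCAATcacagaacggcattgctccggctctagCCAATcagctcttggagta
Rrm1 carries an E2F-type core between a pair of CCAAT boxes, and Ube2c carries a CHR-type match downstream of its CCAAT boxes. In the full windows, Rrm2 also has an E2F-type core and Aurka a CHR-type match, both outside the stretch shown. The Ccne1 and Birc5 windows held none of the 3 patterns.

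Per kilobase of exon, each group's median level was higher for the G2/M list than for the S phase list. The median of the 19 S phase genes lay between 12.3 and 16.1 CPM per kilobase, and that of the 25 G2/M genes between 16.5 and 27.6. Pcna, the sliding clamp of the replication fork, had the highest S phase level in 7 of the 8 groups (56.2 to 80.5 CPM per kilobase), and Rrm2, the regulated subunit of ribonucleotide reductase, led in MT controls at 84.6. Lowest were Ccne1, encoding cyclin E1, at 3.48 to 4.49 in 4T1 combination, poly I:C and control tumours, and Cdc6, which loads the replicative helicase, in the other groups (2.97 to 5.95). In the G2/M list Top2a, which untangles chromosomes, had the highest level in every 4T1 group (46.9 to 72.0), while Birc5, encoding survivin of the chromosomal passenger complex, led in the treated MT groups (59.4 to 65.6) and Ube2c in MT controls (87.4).

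The average of a list in a library shows how far the libraries of a group differ. In log2 CPM, the 19 S phase genes averaged 5.94 ± 0.21 in 4T1 combination, 6.08 ± 0.24 in 4T1 poly I:C, 5.82 ± 0.16 in 4T1 phenformin (n = 3) and 5.85 ± 0.27 in 4T1 control tumours (SD, n = 4 unless given). The 25 G2/M genes averaged 6.47 ± 0.28 in 4T1 combination, 6.50 ± 0.39 in poly I:C, 6.19 ± 0.10 in phenformin and 6.13 ± 0.31 in control tumours. In the MT groups the S phase average was 6.22 ± 0.36 in combination, 6.02 ± 0.13 in poly I:C, 6.02 ± 0.15 in phenformin and 6.20 ± 0.11 in control tumours, while the G2/M average was 6.57 ± 0.19 in combination, 6.47 ± 0.08 in poly I:C, 6.60 ± 0.17 in phenformin and 6.82 ± 0.05 in control tumours. These averages carry no test. MT controls were the tightest group for G2/M genes, and their lowest library (6.76) was above every 4T1 library except poly I:C replicate 4 (7.02). That library had the highest level in the model of 13 of 19 S phase and 23 of 25 G2/M genes. MT combination replicate 1, in which Igkc reached 8738 CPM, had the highest level in its model of 16 of 19 S phase and 12 of 25 G2/M genes, and MT phenformin replicate 1 the lowest of 13 of 19 and 8 of 25.

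**Figure D1:**
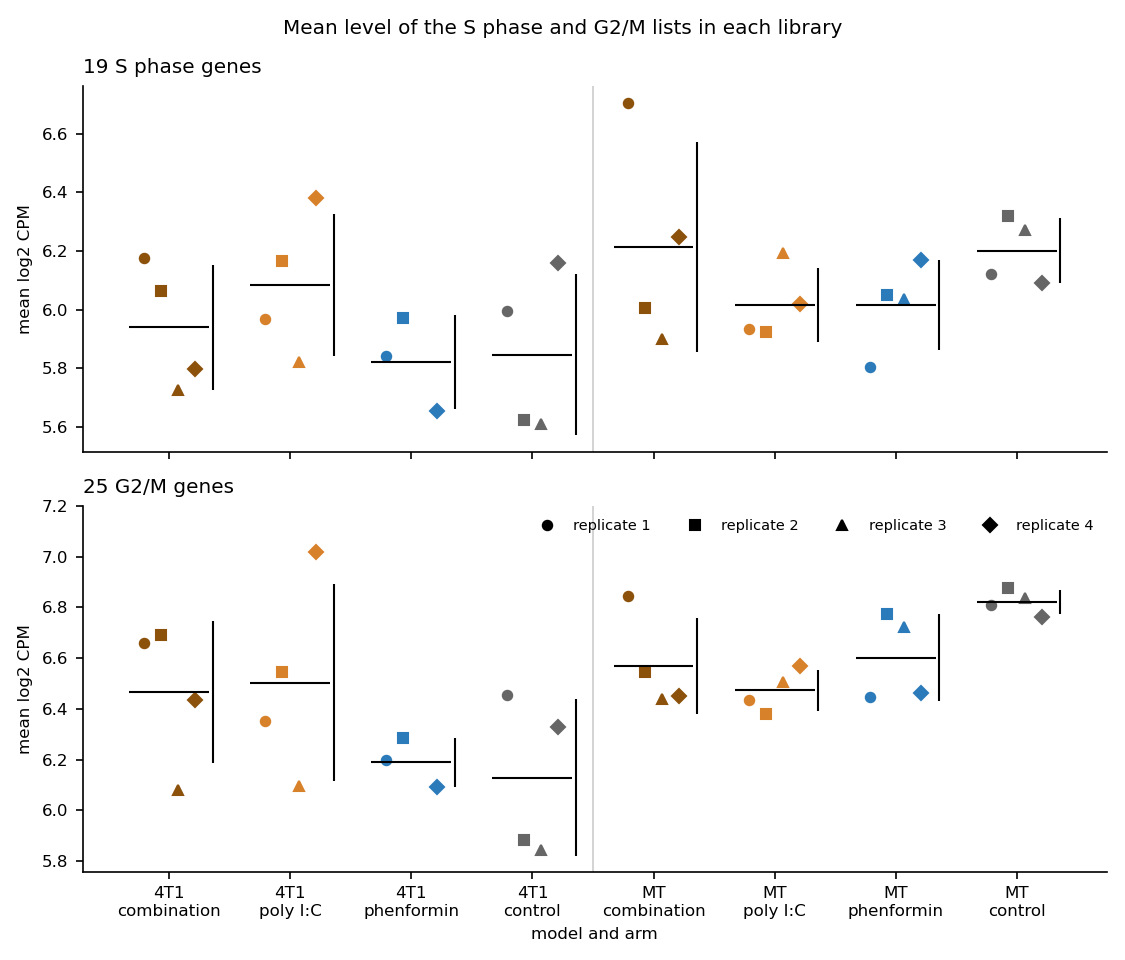
Mean log2 CPM of the 19 S phase genes (top) and the 25 G2/M genes (bottom) in each library, by model and arm; symbols give the replicate number, horizontal lines the group mean and vertical lines 1 SD either side of it. The MT control libraries lay between 6.76 and 6.88 for G2/M genes, and the MT poly I:C libraries lay between 6.38 and 6.57; those of 4T1 poly I:C spread from 6.10 to 7.02.

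Single genes show the same spread. Mcm5, a subunit of the replicative helicase, was at 152, 109, 85.1 and 94.1 CPM in 4T1 combination replicates 1 to 4, at 126, 149, 93.5 and 154 CPM in poly I:C, at 93.4, 114 and 66.9 CPM in phenformin replicates 1, 2 and 4, and at 115, 81.5, 85.5 and 140 CPM in control. In MT tumours it was at 248, 102, 95.1 and 154 CPM in combination, 106, 108, 147 and 114 CPM in poly I:C, 88.7, 110, 99.3 and 132 CPM in phenformin and 118, 137, 147 and 109 CPM in control. All arms of both models overlapped. Mki67, encoding the proliferation marker Ki-67, was at 401, 352, 240 and 284 CPM in 4T1 combination, 382, 370, 253 and 487 CPM in poly I:C, 311, 260 and 235 CPM in phenformin and 309, 202, 192 and 261 CPM in control. In MT tumours Mki67 was at 551, 339, 353 and 247 CPM in combination, 312, 413, 413 and 416 CPM in poly I:C, 394, 370, 385 and 377 CPM in phenformin and 462, 311, 330 and 356 CPM in control. Again every treated arm overlapped with its control. Cdk1, the kinase that drives entry into mitosis, was at 109, 128, 97.0 and 112 CPM in 4T1 combination, 87.8, 116, 97.4 and 141 CPM in poly I:C, 92.3, 96.7 and 89.0 CPM in phenformin and 102, 72.0, 70.3 and 106 CPM in control. In MT tumours Cdk1 was at 113, 133, 104 and 131 CPM in combination, 114, 96.5, 96.5 and 121 CPM in poly I:C, 80.4, 114, 147 and 110 CPM in phenformin and 120, 133, 130 and 162 CPM in control. Its highest 4T1 value was in poly I:C replicate 4 and its highest MT value in control replicate 4.

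In untreated tumours most mitosis genes were lower in 4T1 than in MT (n = 4 each). Of 25 G2/M genes 17 were lower and none was higher in 4T1 controls, and of 19 S phase genes 6 were lower and 1 was higher (edgeR quasi-likelihood test, adjusted p under 0.05 over all genes). Over all 18956 genes tested, 51.9% were called, 26.7% higher and 25.2% lower. The median log2 fold change was -0.58 for the G2/M genes and -0.34 for the S phase genes, against -0.005 for all genes. In bulk tissue, fewer cells of a type and less RNA per cell cannot be told apart. Macrophage markers (7 of 7 with counts) summed to 1437 to 1922 CPM in 4T1 controls and 345 to 460 CPM in MT controls, and fibroblast markers (7 of 7) to 3224 to 4968 CPM in 4T1 controls and 642 to 1118 CPM in MT controls; their part in the result was not tested.

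Birc5 had the smallest p-value among the members. It was at 67.0, 43.8, 45.4 and 68.9 CPM in 4T1 controls, against 237, 263, 248 and 304 CPM in MT controls, which gave -2.23 ± 0.21 on the log2 scale (± SE; adjusted p = 3.74e-09). The groups did not overlap, nor did the models in any arm, with 43.8 to 84.6 CPM over all 4T1 libraries and 138 to 304 CPM over all MT libraries. Ube2c, the E2 enzyme of the APC/C, averaged 60.6 ± 15.9 CPM in 4T1 controls and 227 ± 67.2 CPM in MT controls (-1.91 ± 0.26, adjusted p = 1.53e-06). Aurka, the kinase that matures centrosomes, averaged 35.9 ± 6.73 CPM in 4T1 controls and 161 ± 64.7 CPM in MT controls (-2.17 ± 0.31, adjusted p = 2.65e-06). For both genes MT control replicate 4 was closer to the 4T1 controls than the other 3 MT controls, at 131 CPM for Ube2c and 68.8 CPM for Aurka. The other 14 lower G2/M genes, among them the mitotic cyclins Ccna2, Ccnb1 and Ccnb2 and the spindle checkpoint kinase Ttk, had log2 fold changes of -0.90 to -0.47.

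Among S phase genes, those with the smallest p-values supply nucleotides or act at the G1/S switch. Rrm2 was at 92.7, 71.0, 70.3 and 109 CPM in 4T1 controls, against 234, 280, 277 and 147 CPM in MT controls (-1.45 ± 0.23, adjusted p = 1.13e-05). Ccne1 was at 10.3, 9.12, 7.97 and 9.69 CPM in 4T1 controls, against 22.9, 24.6, 29.0 and 16.9 CPM in MT controls (-1.33 ± 0.23, adjusted p = 3.93e-05). Neither gene's groups overlapped. Rrm1, the other subunit of ribonucleotide reductase, was also lower (-0.71 ± 0.15), as were Tyms, which makes thymidylate (-0.61), Uhrf1, which maintains DNA methylation (-0.70), and Cdc45 of the replicative helicase (-0.46). Gins2, a further subunit of that helicase, was the one member called higher in 4T1 (50.2 ± 7.67 CPM in 4T1 against 37.3 ± 5.15 CPM in MT controls, 0.43 ± 0.14, adjusted p = 0.0138). Its call was lost without 4T1 control replicate 4 (0.32, adjusted p = 0.0737) or MT control replicate 4 (0.33, adjusted p = 0.0592), and without the libraries rich in Igkc (0.16, adjusted p = 0.32). None of the 6 Mcm2 to Mcm7 genes was called (-0.32 to 0.52).

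**Figure D2:**
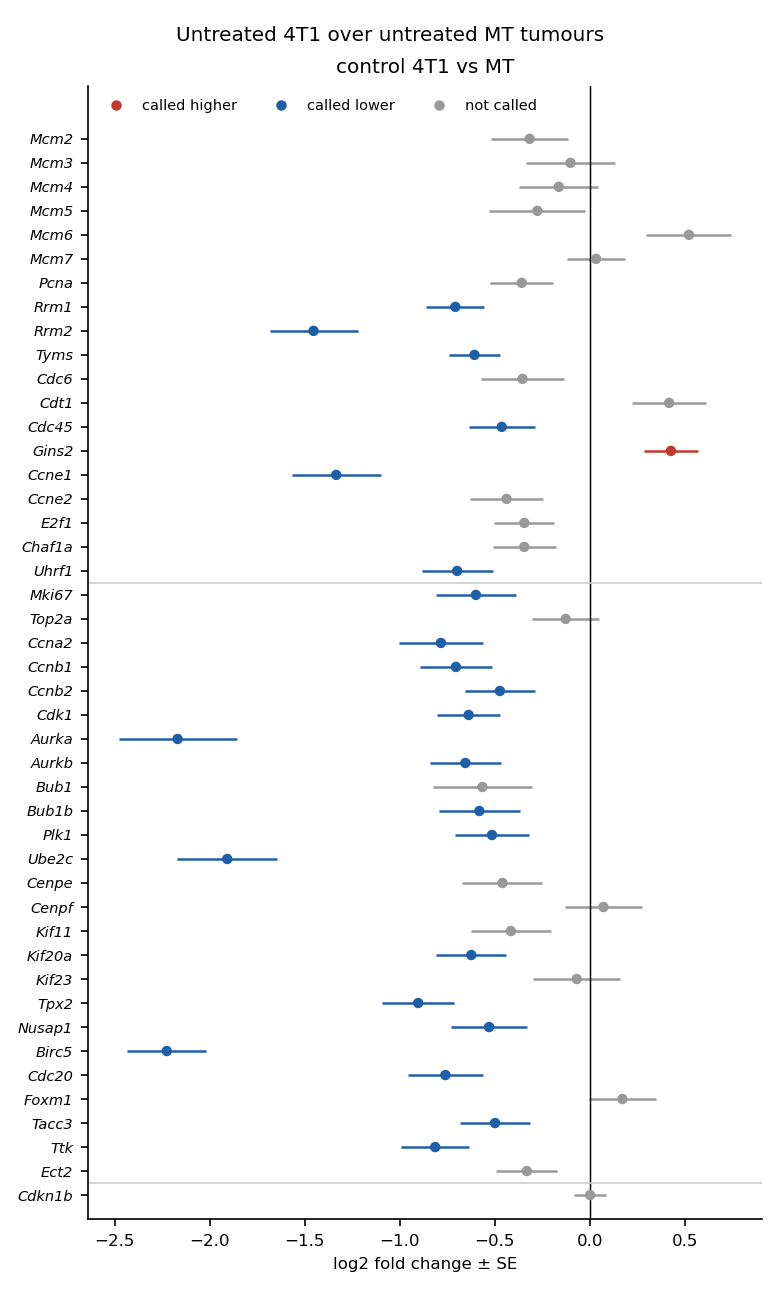
Log2 fold change of untreated 4T1 over untreated MT tumours for each member (points; bars give 1 SE either side), with the S phase genes above the first grey line, the G2/M genes below it and Cdkn1b last; colours give the edgeR call. Birc5, Aurka and Ube2c lie at -2.23 to -1.91, Rrm2 and Ccne1 at -1.45 and -1.33, and Cdkn1b at 0.00.

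Without the MT libraries with Sox10 above 10 CPM, which leaves MT control replicate 4 alone to stand for its group and takes its spread from the others, 11 members were called in place of 24. Birc5 was then -2.43 (adjusted p = 3.63e-06), Ube2c -1.11, Aurka -0.94, Rrm1 -0.63 and Gins2 0.76, all still called, while Rrm2 (-0.78, adjusted p = 0.0542) and Ccne1 (-0.87, adjusted p = 0.0596) were not.

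In 4T1 tumours given poly I:C (n = 4 against n = 4), 2 of 25 G2/M genes rose, as did Cdkn1b, and no S phase gene was called (4 had an unadjusted p under 0.05), against 6.32% of 17445 genes called in either direction, 3.26% higher and 3.06% lower. DESeq2 called 8 members. Estimates leaned one way: all 25 G2/M and all 19 S phase genes were positive, with medians of 0.36 and 0.26 against 0.01 for all genes. Here and in later comparisons the members share their libraries, so equal signs are not separate observations. Poly I:C replicate 4 held the model's highest value of 23 of 25 G2/M and 13 of 19 S phase genes. Ect2, the exchange factor that starts cytokinesis, was at 89.2, 115, 86.5 and 143 CPM in poly I:C tumours, against 79.4, 62.9, 58.8 and 70.6 CPM in controls (0.69 ± 0.16, adjusted p = 0.0263). Bub1, a kinase of the spindle checkpoint, was at 59.2, 63.2, 49.4 and 74.8 CPM in poly I:C tumours, against 47.7, 40.7, 37.1 and 37.3 CPM in controls (0.62 ± 0.17, adjusted p = 0.0458). The libraries of the groups did not overlap for either gene. The S phase members with the smallest p-values were Cdc6 (0.52 ± 0.18, adjusted p = 0.0898) and Rrm2 (0.44 ± 0.17, adjusted p = 0.136), which did not pass.

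These 3 calls rested on few libraries. Poly I:C replicate 4 held the highest value of Ect2, Bub1 and Mki67, and 3 members called became 1 without it; the count was 6, 1, 0 and 0 without control replicates 1, 2, 3 and 4, and 0 and 6 without poly I:C replicates 2 and 3. Ect2 failed in 4 of 8 such fits, those without control replicate 2 (adjusted p = 0.0643), 3 (0.074) or 4 (0.0557) and that without poly I:C replicate 2 (0.0686), and Bub1 failed in 6, all but those without control replicate 1 and poly I:C replicate 3 (up to adjusted p = 0.111). No member passed without the 4T1 libraries with Acta1 above 10 CPM (Ect2 0.79, Bub1 0.74) or without those with Igkc above 100 CPM (0.79 and 0.60), fits with fewer libraries. Other cells differed between these groups too. Summed over their lists, fibroblast markers (7 of 7 with counts) were at 5056 to 12781 CPM in poly I:C tumours and 3224 to 4968 CPM in controls, and macrophage markers (7 of 7) at 541 to 1058 CPM in poly I:C tumours and 1437 to 1922 CPM in controls. Neutrophil markers (8 of 8) were at 492 to 1383 CPM in poly I:C tumours and 253 to 672 CPM in controls, and muscle markers (6 of 6) at up to 189 CPM in poly I:C tumours and up to 18.9 CPM in controls. Their part in the result was not tested.

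Phenformin alone called no gene in 4T1 tumours, member or not (0% of 17445). Member medians were -0.04 for S phase and 0.05 for G2/M genes, and with 1 library left out they ran from -0.13 to 0.075 and from -0.052 to 0.17. No member had an unadjusted p under 0.05. Those with the smallest p-values were Cdc6 (-0.35 ± 0.19, adjusted p = 0.578) and Ccne2, encoding cyclin E2 (-0.14 ± 0.15), and among G2/M genes Bub1 (0.25 ± 0.18, adjusted p = 0.693) and the mitotic kinase Plk1 (-0.29 ± 0.23). DESeq2 called 1 member. The combination also called no gene against control (0%), although 24 of 25 G2/M estimates were positive (median 0.37) and 7 had an unadjusted p under 0.05; the S phase median was 0.08, with no such gene. DESeq2 again called 1 member. Ube2c averaged 94.4 ± 27.6 CPM in combination tumours and 60.6 ± 15.9 CPM in controls (0.66 ± 0.23, adjusted p = 0.257), with overlap between the groups. Ect2 was at 0.50 ± 0.16 (adjusted p = 0.218), and among S phase genes Uhrf1 was at 0.33 ± 0.21 and the histone chaperone gene Chaf1a at 0.23 ± 0.19. Against poly I:C alone, the combination gave no called member with edgeR or DESeq2 (0.246% of all genes, 0.149% higher and 0.0974% lower), with medians of -0.18 for S phase and -0.09 for G2/M genes. Leaving out poly I:C replicate 4 gave a G2/M median of 0.14, and leaving out combination replicate 3 one of 0.012. Cdc6, 1 of 2 S phase genes with an unadjusted p under 0.05, was at 19.8 ± 3.56 CPM in combination and 28.0 ± 6.74 CPM in poly I:C tumours (-0.51 ± 0.18, adjusted p = 0.149). The other was Ccne2 (-0.32 ± 0.14), and of the G2/M genes Ube2c was at 0.40 ± 0.23 (-0.071 without the libraries rich in Acta1) and Ccna2 at -0.37 ± 0.24. Against phenformin alone no gene was called (0%), with medians of 0.10 for S phase and 0.29 for G2/M genes; 3 G2/M genes had an unadjusted p under 0.05, among them Ube2c (0.65 ± 0.25, adjusted p = 0.346) and Aurka (0.52 ± 0.21, adjusted p = 0.356), while Cdc6 was at 0.37 ± 0.19 and Uhrf1 at 0.42 ± 0.23. The interaction, the effect of adding poly I:C to phenformin minus its effect alone, called none either (0%), with medians of -0.09 for S phase and -0.08 for G2/M genes and no member with an unadjusted p under 0.05. The medians were 0.034 and 0.087 without poly I:C replicate 4, and -0.33 and -0.40 without the libraries rich in Acta1. Bub1 (-0.43 ± 0.25), Ccne1 (-0.40 ± 0.29), Mki67 (-0.38 ± 0.30) and Rrm1 (-0.32 ± 0.24) had the smallest p-values. DESeq2 called no member in these last 2 comparisons.

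In MT tumours given poly I:C (n = 4 against n = 4), 6 of 25 G2/M genes and 2 of 19 S phase genes fell, Cdkn1b fell with them, and no member rose. Over all 17857 genes 19.6% were called, 8.52% higher and 11.1% lower. Medians were -0.25 for G2/M and -0.15 for S phase genes, against 0.01 for all genes. Ube2c was at 75.7, 63.0, 71.8 and 81.0 CPM in poly I:C tumours, against 243, 287, 248 and 131 CPM in controls (-1.63 ± 0.26, adjusted p = 0.00197). Aurka was at 46.5, 38.5, 45.7 and 49.1 CPM in poly I:C tumours, against 168, 217, 191 and 68.8 CPM in controls (-1.83 ± 0.36, adjusted p = 0.0051). Tpx2, which activates that kinase on the spindle, was at 106, 100, 114 and 116 CPM in poly I:C tumours, against 188, 201, 194 and 135 CPM in controls (-0.70 ± 0.15, adjusted p = 0.00784). The poly I:C libraries lay below all controls for the 3 genes, and control replicate 4 was the nearest to them each time.

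Ccna2 (-0.66 ± 0.17), Ccnb2 (-0.56 ± 0.15) and Kif20a, a kinesin of cytokinesis (-0.48 ± 0.13), were the other G2/M genes that fell. Among the 19 G2/M genes not called were Mki67 (0.11 ± 0.20), Top2a (0.12 ± 0.13), Foxm1 (0.27 ± 0.14), a transcription factor of this programme, and Ect2 (-0.06 ± 0.14). In the S phase list E2f1, the founding E2F factor, was at 28.5, 23.3, 23.5 and 25.4 CPM in poly I:C tumours, against 37.7, 47.3, 43.6 and 27.9 CPM in controls (-0.62 ± 0.16, adjusted p = 0.0179), and overlapped with control replicate 4. Rrm2 was at 115, 122, 148 and 128 CPM in poly I:C tumours, against 234, 280, 277 and 147 CPM in controls (-0.86 ± 0.25, adjusted p = 0.031), and overlapped with the same library. The helicase genes Mcm2 to Mcm7 were not called (-0.11 to 0.24).

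**Figure D3:**
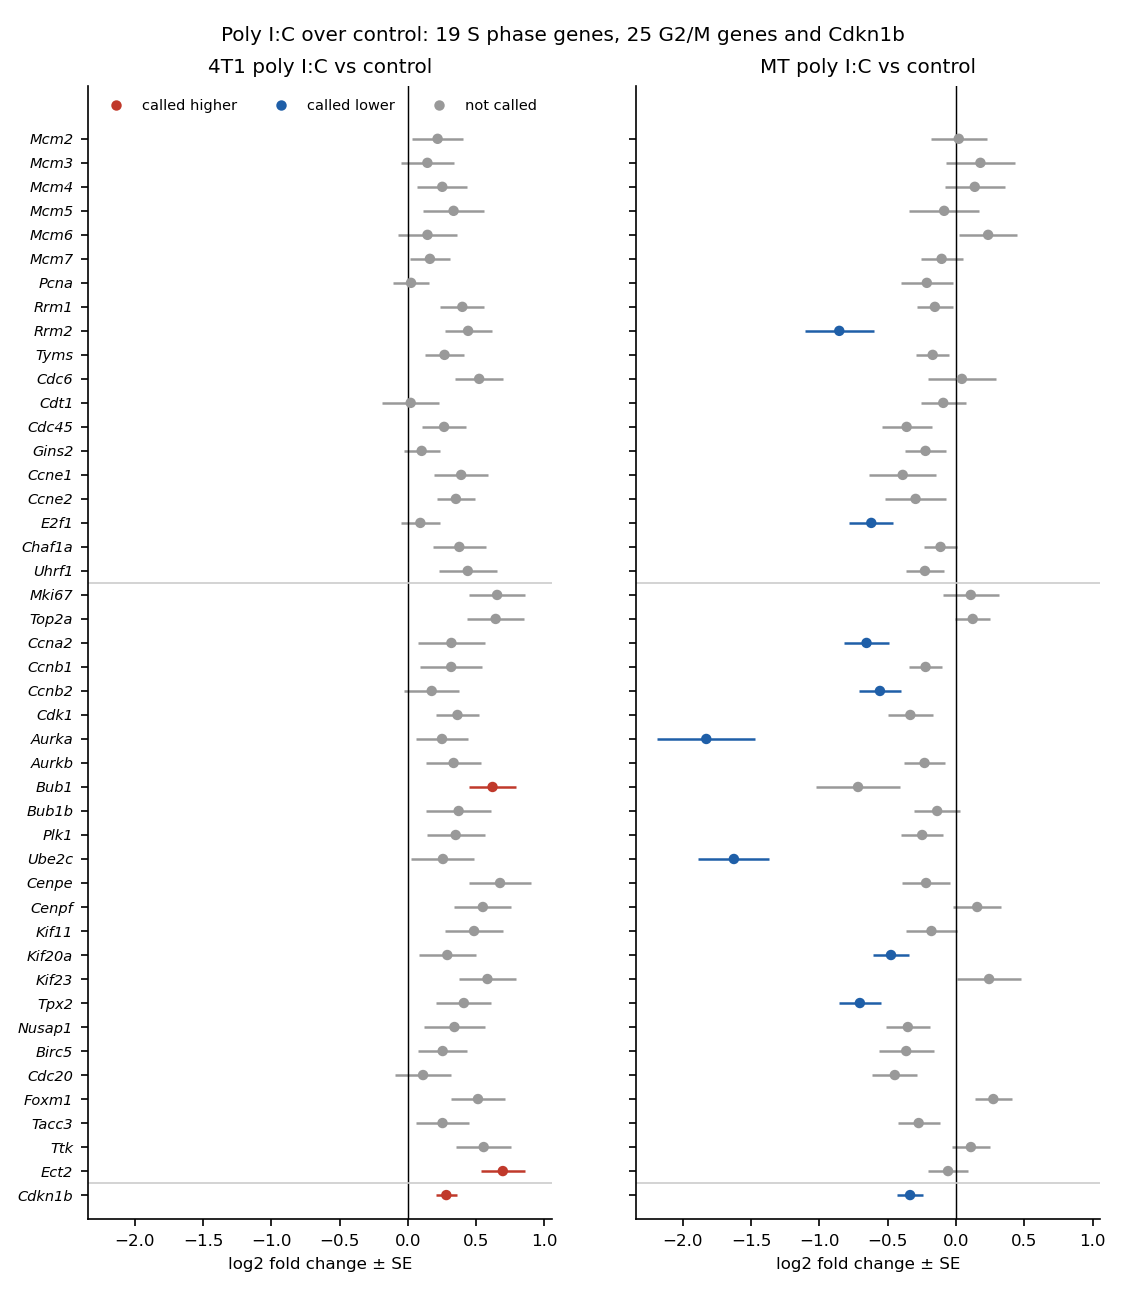
Log2 fold change of poly I:C over control for each member in 4T1 (left) and MT (right) tumours; points are estimates, bars give 1 SE either side and colours the edgeR call, with S phase genes at the top, G2/M genes below and Cdkn1b last. In 4T1 tumours all 44 S phase and G2/M estimates are positive, with Ect2 highest at 0.69, while in MT tumours Aurka and Ube2c stand apart at -1.83 and -1.63.

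Ube2c, Aurka and Tpx2 were called in all 8 fits with 1 library left out. E2f1 failed in 4 of them, those without control replicate 2 (adjusted p = 0.0713) or 3 (0.0537) and those without poly I:C replicate 2 (0.0585) or 3 (0.0563), and Rrm2 was called in only 1 of the 8, that without control replicate 4. The count of 9 called members was 3 and 5 without control replicates 2 and 3, and 4 and 5 without poly I:C replicates 2 and 3. The arms also differed in Sox10 and Krt5, since 3 of 4 controls and no poly I:C library were rich in Sox10. Without the libraries with Sox10 above 10 CPM, which leaves control replicate 4 alone, no member was called; Ube2c was -0.82 (adjusted p = 0.157), Aurka -0.59, Tpx2 -0.28, Rrm2 -0.17 and E2f1 -0.12. With each library's log2 Krt5 to Sox10 ratio as a further term in the fit, 3 members were called, and Ube2c was one of them (-0.82, adjusted p = 0.0188). Macrophage markers (7 of 7 with counts) summed to 1144 to 1391 CPM in poly I:C tumours and 345 to 460 CPM in controls, fibroblast markers (7 of 7) to 1699 to 1970 CPM in poly I:C tumours and 642 to 1118 CPM in controls, and endothelial markers (5 of 5) to 243 to 393 CPM in poly I:C tumours and 102 to 167 CPM in controls. Their part in the result was not tested.

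Of the 9 members that fell, 4 lie on the distal part of 1 chromosome. Tpx2, E2f1, Ube2c and Aurka are all on chromosome 2 of GRCm38, starting at positions 152847964, 154559407, 164769898 and 172356190. No other member lies beyond 150 Mb on that chromosome. Of the other 383 tested genes there, 119 were lower and 19 higher in MT poly I:C tumours, where 11.1% of all genes were lower and 8.52% higher. Their median log2 fold change was -0.49, against 0.02 for genes elsewhere. In 4T1 poly I:C tumours 28 of 372 such genes were lower and 2 higher (median -0.06), where 3.06% of all genes were lower and 3.26% higher. Within 5 Mb of each member, the median of the other genes was -1.03 around Aurka, -0.71 around Ube2c, -0.43 around Tpx2 and -0.37 around E2f1. For comparison, 5% of 17539 genes have neighbours with a median below -0.32. Each of the 4 members was below the median of its neighbours, but they were picked as called lower, so this was not a test. Rrm2, on chromosome 12, had neighbours at -0.21, and Ccnb2, on chromosome 9, at 0.12. The neighbours of Ccna2 on chromosome 3 were at -0.33, those of Kif20a on chromosome 18 at -0.32 and those of Cdkn1b on chromosome 6 at -0.15. By library, the genes of that stretch of chromosome 2 lay 0.37 to 0.43 above their MT mean (log2) in the 5 libraries with the most Sox10, and at -0.23 to -0.095 in the other 11, control replicate 4 (-0.16) among them. In untreated tumours the neighbours of Birc5, near the end of chromosome 11, had a median of -1.07 in 4T1 over MT, those of Aurka -0.87 and those of Ube2c -0.73, while those of Rrm2 (-0.08) and Ccne1 (-0.16) were near 0. The stretch and the 5 Mb distance were chosen after the values were seen, and the copy number of these regions was not measured.

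**Figure D4:**
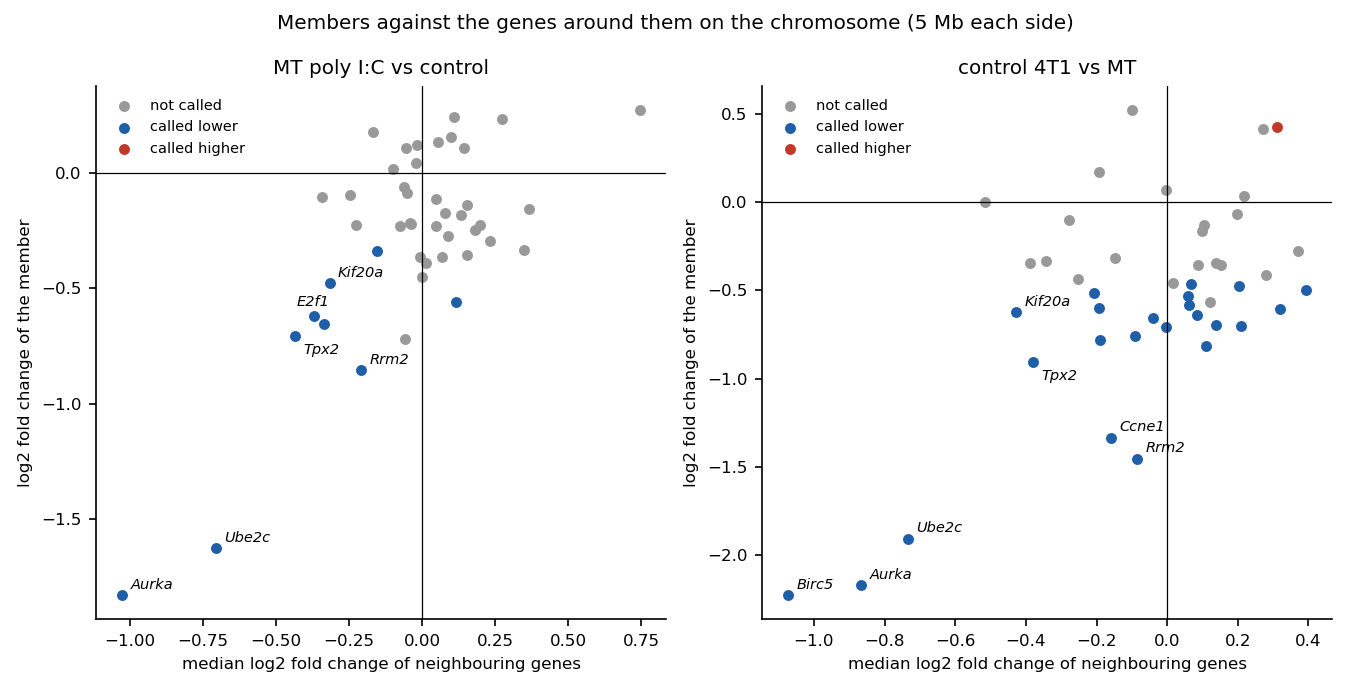
Log2 fold change of each member (vertical) against the median log2 fold change of the other tested genes within 5 Mb of it (horizontal), for MT poly I:C over control (left) and for untreated 4T1 over untreated MT tumours (right); each point is 1 member, coloured by its edgeR call. Aurka and Ube2c lie at the lower left in both panels, with neighbour medians of -1.03 and -0.71 (left), whereas Rrm2 and Ccne1 in the right panel have neighbours near 0.

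In MT tumours given the combination (n = 4 against n = 4), Aurka, Ube2c, Tpx2 and Cdkn1b fell, and no S phase gene was called (2 had an unadjusted p under 0.05), against 6.14% of all genes called, 2.81% higher and 3.33% lower. DESeq2 called 6 members. Aurka was at 64.1, 54.7, 47.1 and 55.6 CPM in combination tumours (-1.54 ± 0.36, adjusted p = 0.0333) and Ube2c at 104, 94.8, 74.8 and 93.5 CPM (-1.30 ± 0.26, adjusted p = 0.0237), both below all 4 controls given above. Tpx2 was at 150, 114, 109 and 116 CPM and overlapped with control replicate 4 (-0.55 ± 0.15, adjusted p = 0.049). The medians were -0.14 for G2/M and 0.02 for S phase genes. They were -0.30 and -0.32 without the libraries rich in Igkc, which leaves combination replicate 3 alone in its group. The S phase median was -0.12 without combination replicate 1. The S phase genes with the smallest p-values were E2f1 (-0.52 ± 0.16, adjusted p = 0.0651) and Mcm6 (0.51 ± 0.21, adjusted p = 0.132). The 4 called members became 0 without combination replicate 2, 3 or 4 or control replicate 1 or 2, 1 without control replicate 3 and 7 without control replicate 4. They were also 0 with the Krt5 to Sox10 term. Without the libraries rich in Sox10, which leaves control replicate 4 alone, Aurka was -0.29, Ube2c -0.49, Tpx2 -0.12 and Cdkn1b -0.54. Endothelial markers (5 of 5) summed to 241 to 297 CPM in combination tumours and 102 to 167 CPM in controls, and macrophage markers (7 of 7) to 547 to 1361 CPM in combination tumours and 345 to 460 CPM in controls. Their part was not tested. This comparison shares its controls with that of poly I:C alone. The other genes beyond 150 Mb on chromosome 2 had a median of -0.44, with 45 lower and 10 higher.

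Phenformin alone called no gene in MT tumours (0%), and DESeq2 called no member; 1 G2/M and no S phase gene had an unadjusted p under 0.05. The medians were -0.19 for S phase and -0.20 for G2/M genes. Without the libraries rich in Sox10, which leaves replicate 4 alone in both arms, the S phase median was 0.15 and Cdc45 was at 0.088. With all libraries Cdc45 was at -0.34 ± 0.18, Tyms at -0.24 ± 0.12 and Ccna2 at -0.43 ± 0.17 (adjusted p = 0.811). Ube2c averaged 155 ± 58.5 CPM in phenformin tumours and 227 ± 67.2 CPM in controls (-0.54 ± 0.25, adjusted p = 0.813). Its 4 libraries ran from 232 CPM in replicate 2 to 91.3 CPM in replicate 4, the phenformin library with the least Sox10. Adding phenformin to poly I:C called no gene (0%), and DESeq2 called no member; 2 G2/M and no S phase gene had an unadjusted p under 0.05. All 19 S phase estimates were positive (median 0.19), as were 17 of 25 G2/M estimates (median 0.16). Without combination replicate 1, however, the G2/M median was 0.0072. Without the libraries rich in Igkc, which leaves 1 combination library, the S phase median was -0.020 and the G2/M median 0.019. Cdc20, the activator of the APC/C, was at 0.41 ± 0.16, Ccnb2 at 0.39 ± 0.15 and Pcna at 0.37 ± 0.19. Ccne1, highest in combination replicate 1, was at 39.1, 19.5, 16.3 and 25.7 CPM in combination and 13.7, 17.8, 21.7 and 17.1 CPM in poly I:C tumours (0.50 ± 0.25, adjusted p = 0.817). Against phenformin alone the combination called no member (0.106% of all genes, 0.0784% higher and 0.028% lower), and DESeq2 called 1; 1 S phase and 2 G2/M genes had an unadjusted p under 0.05. Mcm6 was at 0.59 ± 0.21 (adjusted p = 0.294), Cdc6 at 0.48 ± 0.25, Aurka at -0.94 ± 0.35 (adjusted p = 0.305) and Ube2c at -0.77 ± 0.25 (adjusted p = 0.269). Without the libraries rich in Sox10, which leaves phenformin replicate 4 alone, Aurka was at 0.13 and Ube2c at -0.018. Without the libraries rich in Igkc, which leaves 1 combination library, the medians were -0.020 for S phase and -0.15 for G2/M genes. Without phenformin replicate 4, 1 member was called. With all libraries the S phase median was 0.21 and the G2/M median 0.04, and without combination replicate 1 the G2/M median was -0.11. The interaction called no gene (0%), with medians of 0.35 for S phase and 0.36 for G2/M genes against -0.04 for all genes; all 19 S phase estimates were positive, and 1 S phase and 6 G2/M genes had an unadjusted p under 0.05, while DESeq2 called no member. Ccna2 was at 0.68 ± 0.24 (adjusted p = 0.386), Ccnb2 at 0.60 ± 0.21, Ccne1 at 0.74 ± 0.35 and Tyms at 0.37 ± 0.17.

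**Figure D5:**
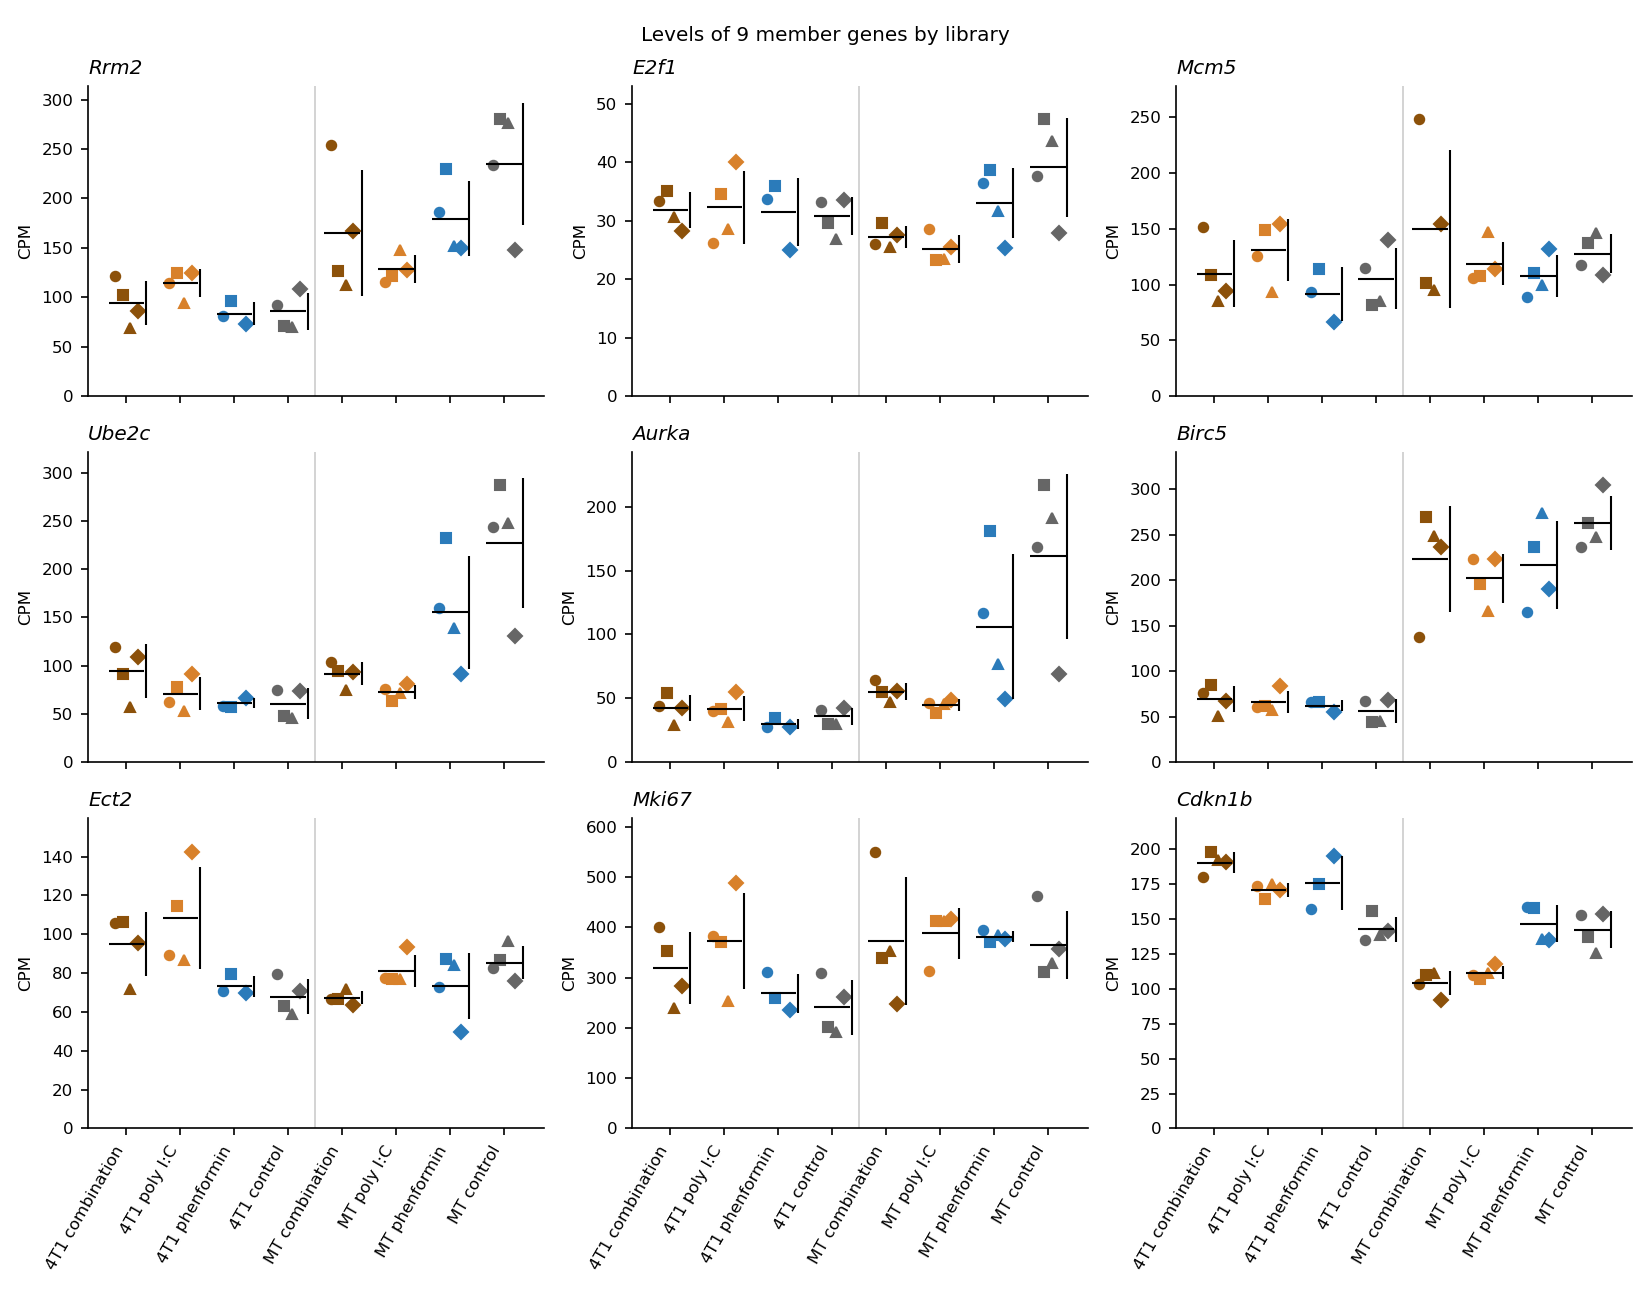
CPM of 9 members in each library, by model and arm; symbols give the replicate number (circle 1, square 2, triangle 3, diamond 4), horizontal lines the group mean and vertical lines 1 SD either side of it. Ube2c, Aurka, Rrm2 and E2f1 are high in MT control replicates 1 to 3 and lower in replicate 4, Birc5 separates the models in every arm, and Cdkn1b runs from 164 to 198 CPM in 4T1 tumours given poly I:C with or without phenformin and from 91.7 to 118 CPM in the MT tumours given the same.

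The response to poly I:C was compared between the models in 1 fit of all 31 libraries. Of the members 2 S phase genes, 6 G2/M genes and Cdkn1b responded differently, all with a higher response in 4T1, against 11.1% of 18956 genes called, 5.7% higher and 5.42% lower. Each response is set against the controls of its own model, so the comparisons of the poly I:C and combination responses share them. The difference of log2 fold changes was 2.07 ± 0.43 for Aurka (adjusted p = 0.00312), 1.87 ± 0.36 for Ube2c (adjusted p = 0.00185), 1.11 ± 0.26 for Tpx2, 1.33 ± 0.37 for Bub1, 0.96 ± 0.31 for Ccna2, 0.75 ± 0.23 for Ect2, 1.29 ± 0.32 for Rrm2 (adjusted p = 0.0117) and 0.70 ± 0.22 for E2f1. All 25 G2/M and 17 of 19 S phase differences were positive, with medians of 0.61 and 0.43 against 0.01 for all genes. The differences of Aurka, Ube2c, Tpx2 and Rrm2 were called in all 16 fits with 1 library left out, and that of E2f1 failed in 10 (adjusted p up to 0.11). The count of 9 was 5 without MT control replicate 2. Without the libraries rich in Igkc 18 members were called. The MT controls left in that fit are all rich in Sox10 (173 to 218 CPM), and no MT poly I:C library is. Without the MT libraries rich in Sox10, which leaves 1 MT control, the differences were 1.04 for Ube2c, 0.81 for Aurka and 0.59 for Rrm2.

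The response to phenformin differed for no gene (0%), with medians of 0.15 for S phase and 0.22 for G2/M genes. DESeq2 called no member, and none had an unadjusted p under 0.05. The S phase median was -0.13 without the libraries rich in Sox10, which leaves 1 MT control and 1 MT phenformin library. With all libraries, these members had the smallest p-values. Nusap1, a spindle microtubule gene, was at 0.48 ± 0.30, Ccna2 at 0.50 ± 0.32, Tyms at 0.34 ± 0.20 and Rrm1 at 0.33 ± 0.22. The response to the combination differed for Ube2c (1.95 ± 0.36, adjusted p = 0.00529), Aurka (1.78 ± 0.43, adjusted p = 0.0215), Ect2 (0.83 ± 0.23, adjusted p = 0.0382) and Cdkn1b, against 4.56% of all genes called, 2.26% higher and 2.29% lower. The median was 0.48 for G2/M and 0.11 for S phase genes; no S phase gene was called by edgeR, 1 had an unadjusted p under 0.05, E2f1 was at 0.57 ± 0.22 and Rrm2 at 0.65 ± 0.32. Without the libraries rich in Sox10, which leaves 1 MT control, the S phase median was -0.15 and Rrm2 was at -0.042. Without the libraries rich in Igkc, which leaves 1 MT combination library, the S phase median was 0.55. Aurka failed without 4T1 control replicate 3 or MT control replicate 2 (adjusted p = 0.0547 and 0.0574), and Ect2 in 11 of 16 such fits (adjusted p up to 0.0831). The count of 4 was 2 without either of those controls, 8 without MT control replicate 4, and 1 without the MT libraries rich in Sox10 or the 4T1 libraries rich in Acta1.

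Cdkn1b rose with poly I:C in 4T1 tumours and fell with it in MT tumours. It was at 174, 164, 175 and 171 CPM in 4T1 poly I:C tumours, against 135, 155, 138 and 141 CPM in controls (0.28 ± 0.08, adjusted p = 0.0477). In 4T1 combination tumours it was at 180, 198, 192 and 191 CPM (0.43 ± 0.08, adjusted p = 0.0723), and in phenformin tumours at 157, 175 and 195 CPM. All 4T1 treated libraries lay above all 4T1 controls. In MT tumours it was at 110, 107, 111 and 118 CPM in poly I:C (-0.34 ± 0.09, adjusted p = 0.0235) and 103, 110, 111 and 91.7 CPM in combination (-0.45 ± 0.09, adjusted p = 0.0262), against 152, 137, 126 and 154 CPM in controls, with MT phenformin at 158, 158, 135 and 135 CPM. No MT library with poly I:C overlapped with the controls or with phenformin alone. In untreated tumours no difference between the models was detected (0.00 ± 0.08, adjusted p = 0.988). The difference between the models was 0.61 ± 0.12 for poly I:C (adjusted p = 0.00185) and 0.87 ± 0.12 for the combination (adjusted p = 0.00136). Both were called in all 16 fits with 1 library left out, and without the 4T1 libraries rich in Acta1 (0.62 and 0.90). Without the MT libraries rich in Sox10, which leaves 1 MT control, the differences were 0.69 and 0.94. Without the libraries rich in Igkc, which leaves 1 MT combination library, they were 0.60 and 0.74. Within a model the calls were less steady: that in 4T1 failed in 7 of 8 fits with 1 library left out (adjusted p up to 0.102) and those in MT in 5 of 8 each (up to 0.0729 and 0.0902), with estimates of 0.26 to 0.33 for poly I:C in 4T1, and in MT of -0.39 to -0.30 for poly I:C and -0.50 to -0.39 for the combination. The MT calls were also lost without the libraries rich in Sox10 (-0.44 and -0.54), and the 4T1 call without those rich in Acta1 (0.29) or Igkc (0.27). Without the libraries rich in Igkc, the MT estimates were -0.35 for poly I:C (edgeR, adjusted p = 0.0808) and -0.32 for the combination. The MT adjusted p-values were 0.107 and 0.174 with the Krt5 to Sox10 term, and 0.0654 and 0.0513 with no filter on low counts. Most of p27 control is known to act on the protein, which was not measured here.

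Other genes of the same phases were followed as lists that do not hold the members. These lists were chosen with earlier results of these data known, and they were measured in the same libraries. They were counted in the main fits only. Leaving out single libraries, or those rich in Sox10, was not tried for them. The MT comparisons rest on the same controls as above, most of them rich in Sox10. In 4T1 poly I:C tumours 5 of 42 other G2/M genes rose and none fell (median 0.40; 3.26% of all genes rose), among them Dlgap5 and Hmmr, which act on spindle microtubules (0.66 ± 0.17 and 0.59 ± 0.16), and Ckap2l (0.64 ± 0.17); of 40 other S phase genes only the chromatin remodeller Hells rose (0.55 ± 0.15; median 0.20). In MT poly I:C tumours 8 of 42 other G2/M genes fell and none rose (median -0.25; 11.1% of all genes fell), led by the kinetochore gene Spc25 (-0.62 ± 0.10), the mitotic kinase Pbk (-0.84 ± 0.17) and Cdc25c, the phosphatase that activates CDK1 (-0.98 ± 0.21). Of 40 other S phase genes 5 fell (median -0.15), a share near that of all genes, including Orc6 of the origin recognition complex (-0.63 ± 0.13) and Gins1 (-0.69 ± 0.16). In untreated tumours 28 of 42 other G2/M genes were lower and none higher in 4T1 than in MT (median -0.58; 25.2% of all genes were lower and 26.7% higher), and 22 of 40 other S phase genes were lower and 2 higher (median -0.45), with the thymidine kinase Tk1 at -1.94 ± 0.22 and Mybl2, the B-MYB factor of the G2/M programme, at -1.84 ± 0.28. The response to poly I:C was higher in 4T1 for 14 of 42 other G2/M and 4 of 40 other S phase genes (medians 0.64 and 0.45), and lower for none, beside 5.7% of all genes with a higher response.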

How the data were processed

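Bulk poly(A) RNA of 31 tumour libraries was measured; per the labels, RNA came from columns and libraries were strand-specific. The table deposited by the authors holds unnormalised read counts for each gene. Per the submitters' processing notes, the authors used Trimmomatic 0.32.48, STAR 2.3.0 and featureCounts 1.4.4 with mm10 (GRCm38); the annotation, the strand setting of counting and any filter are not given in the sources used here. Without a known strand setting, reads of overlapping antisense genes cannot be told apart. All 31 columns were matched to titles, and groups follow the titles. Library totals set the counting precision, and intervals from the fit cover the spread between libraries.

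Counts were tested with edgeR 4.0.16 in R 4.3.3: filterByExpr (minimum count 10, minimum total 15), TMM scaling, quasi-likelihood F-tests, 1 fit for each model (17445 and 17857 genes) and 1 joint fit (18956 genes), p-values adjusted by Benjamini-Hochberg over all genes of a fit, called under 0.05. SE is the log2 fold change divided by the square root of F. CPM uses TMM-scaled library sizes over all libraries; list averages use log2 CPM with a prior count of 2. Levels per kilobase use the merged exon length of GENCODE M21. The fits were also run on simulated counts. The planted changes were larger than most reported here and all genes had the same spread, so nothing is drawn from that run. Members and lists, and the promoter patterns, were chosen with earlier results of these data known. Named genes are all called members where 6 or fewer, otherwise the 3 of smallest p in each list, or the 2 of smallest p where a list had none called, and the largest rise and fall among called members. Tyms, Uhrf1, Cdc45, Mcm2 to Mcm7, Ttk and the mitotic cyclins in the untreated comparison, the G2/M genes beyond Ube2c, Aurka and Tpx2 in MT poly I:C tumours, and Bub1, Ccna2 and Ect2 in the poly I:C response were named outside that rule, after their values were seen.

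The labels do not tie same-numbered libraries of different arms to each other and not all of their correlations were above 0.1 in either model, so no block was used. Alternatives tried were DESeq2 1.42.0, DESeq2 size factors in edgeR, no filter, at least 1 CPM in 4 libraries, the replicate block and leaving out each library. Fits without libraries rich in Sox10 or Acta1 (above 10 CPM) or Igkc (above 100 CPM), and with the Krt5 to Sox10 ratio as a term, were chosen after seeing the data.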

Additional observations from a re-analysis of the deposited data

Results flagged for a closer look

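In 5 of the 105 sets of 4 libraries examined, for the 13 members given by library and both list averages, 1 library lay far from the other 3 by Dixon's criterion, which chance gives in about 1 of 20 sets. Bub1 was at 76.2 CPM in MT combination replicate 1, against 28.0 to 34.4 CPM in the others, and Birc5 at 83.8 CPM in 4T1 poly I:C replicate 4, against 57.9 to 61.5 CPM. Ect2 was at 93.4 CPM in MT poly I:C replicate 4 (others 76.8 to 77.5), Mki67 at 312 CPM in MT poly I:C replicate 1 (others 413 to 416) and Ccne1 at 22.2 CPM in MT phenformin replicate 2 (others 18.4 to 18.9).

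The test of the difference itself found that the response to poly I:C was higher in 4T1 than in MT tumours for Aurka (2.07), Ube2c (1.87), Bub1 (1.33), Rrm2 (1.29), Tpx2 (1.11), Ccna2 (0.96), Ect2 (0.75), E2f1 (0.70) and Cdkn1b (0.61), as differences of log2 fold changes. For the combination it was higher for Ube2c (1.95), Aurka (1.78), Cdkn1b (0.87) and Ect2 (0.83).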

How the results depend on the processing

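Counts of called members moved with single libraries: leaving 1 out gave 0 to 6 called for poly I:C in 4T1 (3 with all), 3 to 10 in MT (9), 0 to 7 for the combination in MT (4), 0 to 1 for the combination over phenformin in MT (0), 5 to 13 for the poly I:C response (9) and 2 to 8 for the combination response (4); the G2/M median of the combination in MT ran from -0.11 to 0.14 over phenformin and from 0.0072 to 0.22 over poly I:C. DESeq2 called 8 members for poly I:C, 1 for phenformin and 1 for the combination against control in 4T1, and 1 for the combination over phenformin in MT. With no filter 1 was called for poly I:C in 4T1 and 2 for the combination in MT. The replicate block called 5 for poly I:C in 4T1 and changed no other count past 1.5 times. With it the adjusted p was 0.0697 for Cdkn1b (0.28) under poly I:C in 4T1, 0.0633 for Tpx2 (-0.54) under the combination in MT and 0.051 for Ect2 (0.82) in the combination response; same-numbered libraries correlated from -0.51 to 0.20 in 4T1 and from -0.79 to 0.77 in MT, and 0 of 15 and 7 of 16 libraries correlated best with their own number. DESeq2 size factors and the filter of 1 CPM in 4 libraries moved no count past 1.5 times.

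Without the Sox10-rich libraries, 0 members were called for poly I:C and 0 for the combination in MT, 11 between untreated models, 1 for each of the poly I:C and combination responses, and S phase medians were 0.15 for phenformin and 0.13 for the interaction in MT, and -0.13 and -0.15 for the phenformin and combination responses. Single estimates turned sign there, none of them called: Cdc45 for phenformin (0.088) and Aurka for the combination over phenformin (0.13) in MT, and Rrm2 in the combination response (-0.042). The Krt5 to Sox10 term left 3 called for poly I:C and 0 for the combination. Without the Acta1-rich libraries 0 were called for poly I:C in 4T1 and 1 in the combination response, the S phase and G2/M interaction medians in 4T1 were -0.33 and -0.40, and Ube2c for the combination over poly I:C was -0.071. Without the Igkc-rich libraries 0 were called for poly I:C in 4T1. In MT this leaves 1 combination library, and the controls left are all rich in Sox10. The S phase and G2/M medians of the combination in MT were then -0.32 and -0.30 over control. They were -0.020 and 0.019 over poly I:C, and -0.020 and -0.15 over phenformin. The G2/M interaction median in MT was 0.20, and the S phase median of the combination response was 0.55. In the poly I:C response 18 were called (medians 0.68 and 0.87). These fits hold fewer libraries; other causes were not tested.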

Other observations

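Genes that govern entry into S phase were followed beside the members. Of 19 genes for G1 cyclins, their kinases, the Rb family and MYC factors, 1 rose in 4T1 poly I:C tumours, Lin54, a MuvB subunit (0.44 ± 0.11, adjusted p = 0.0327), and 1 fell in MT poly I:C tumours, the G1 kinase Cdk4 (-0.66 ± 0.12, adjusted p = 0.00429). Over all genes, 3.26% rose in 4T1 poly I:C tumours and 11.1% fell in MT poly I:C tumours. The medians of the list were 0.08 and 0.01. Between untreated tumours 6 were higher and 6 lower in 4T1 than in MT, where 26.7% of all genes were higher and 25.2% lower, with Myc, a driver of growth, at 1.17 ± 0.12 (adjusted p = 1.88e-08) and the repressor E2f4 at 0.82 ± 0.16, and with Lin37, a MuvB complex subunit, at -0.66 ± 0.16 (adjusted p = 0.00122).

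Of 7 CDK inhibitors other than Cdkn1b, 1 rose in 4T1 poly I:C tumours, Cdkn1a, the p53 target p21 (1.08 ± 0.22, adjusted p = 0.0157), and 2 fell in MT poly I:C tumours, Cdkn2a, which encodes p16 and p19ARF (-1.49 ± 0.41, adjusted p = 0.0234), and Cdkn3 (-0.91 ± 0.23). Cdkn2a and Cdkn2b were lower and Cdkn2c higher in untreated 4T1 than MT tumours (-7.84 ± 0.56, -2.75 ± 0.35 and 0.96 ± 0.15). Over all genes, 3.26% rose in 4T1 poly I:C tumours and 11.1% fell in MT poly I:C tumours. Between untreated tumours 51.9% of all genes were called, 26.7% higher and 25.2% lower in 4T1. Neither this list nor that of G1 genes was refitted without the libraries rich in Sox10.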
